A study of Mus musculus with 8 samples.

Results

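Fragments of S100 and annexin messenger RNAs were described in small RNA sequenced from mouse sperm, in a series whose title and design text speak of alcohol cessation. The 10 genes, S100a1, S100a6, S100a10, S100a11, S100a13, S100a16, Anxa1, Anxa2, Anxa4 and Anxa5, are among 19223 genes with counts on mRNA exons and 45405 features of all RNA classes. They were chosen by family name, with their levels in these same libraries known, so their values in ethanol and control sperm are a description and carry no test. The study compared 4 ethanol with 4 control libraries of sperm RNA, and the labels name the tissue and the treatment only. Strain, age, dose, length of exposure and whether a library came from 1 animal or a pool were not stated in the labels. The p-values below for other genes therefore measure only the spread between these libraries, which may be technical.

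S100 proteins are small EF-hand proteins that change shape when they bind calcium and then dock onto target proteins. Annexins bind acidic phospholipids on the inner face of membranes when calcium rises, and act in vesicle traffic, membrane repair and cortical actin organisation. The families work together: S100a10 and Anxa2 chains form a heterotetramer at the plasma membrane, and S100a11 binds the amino terminus of Anxa1. Mature sperm transcribe little or no RNA, and the RNA they carry comes from spermatogenesis and from material taken up in the epididymis, the duct in which sperm mature.

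The coding parts of exons shown here were chosen after their values were seen, because they carry a calcium site of the annexins or the start of the S100 proteins. In the first 4, capitals mark the codons of a type 2 calcium site. All are exon 6 of the RefSeq transcript, with sequence from GENCODE M21 transcripts on GRCm38, written 5′ to 3′ on the strand of the gene. The build that the authors counted on is not known, and the exons were matched by transcript accession and exon order.
Anxa1 exon 6, chr19:20382050-20382140, reverse strand: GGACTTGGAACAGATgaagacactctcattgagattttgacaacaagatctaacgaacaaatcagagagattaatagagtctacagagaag
Anxa2 exon 6, chr9:69482974-69483064, forward strand: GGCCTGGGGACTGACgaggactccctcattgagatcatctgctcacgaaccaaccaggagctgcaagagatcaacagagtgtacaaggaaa
Anxa4 exon 6, chr6:86753803-86753893, reverse strand: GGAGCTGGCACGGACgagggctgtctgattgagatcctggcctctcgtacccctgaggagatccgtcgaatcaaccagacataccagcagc
Anxa5 exon 6, chr3:36460443-36460533, reverse strand: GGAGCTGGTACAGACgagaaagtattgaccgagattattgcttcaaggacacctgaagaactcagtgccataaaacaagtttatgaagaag
Each of these exons is 91 bases long, and the 6 pairs share 50.5% to 64.8% of positions, most between Anxa2 and Anxa1. Exon 6 held 12 counts in ethanol and 0 in control libraries for Anxa1, 55 and 3 for Anxa2, 19 and 13 for Anxa4, and 32 and 3 for Anxa5. In the S100 sequences, capitals mark the start codon.
S100a11 exon 2, chr3:93524059-93524199, forward strand: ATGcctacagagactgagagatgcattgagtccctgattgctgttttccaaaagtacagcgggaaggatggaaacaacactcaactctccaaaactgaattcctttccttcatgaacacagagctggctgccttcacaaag
S100a10 exon 2, chr3:93560964-93561095, forward strand: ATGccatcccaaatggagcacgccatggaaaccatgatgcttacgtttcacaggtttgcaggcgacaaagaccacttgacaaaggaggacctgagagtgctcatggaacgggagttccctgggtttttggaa
S100a16 exon 2, chr3:90542020-90542172, forward strand: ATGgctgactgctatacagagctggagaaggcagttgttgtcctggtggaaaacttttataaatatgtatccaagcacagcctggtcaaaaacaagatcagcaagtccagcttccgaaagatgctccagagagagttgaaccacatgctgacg
These exons held 161 counts in ethanol and 18 in control libraries for S100a11, 59 and 10 for S100a10, and 49 and 3 for S100a16. The type 2 site was searched in frame as a strict pattern of glycine, any residue, glycine, threonine and an acidic residue. This pattern matched 1 time each in Anxa1 and Anxa2 and 3 times each in Anxa4 and Anxa5. Sites that depart from the pattern would be missed, so these are not numbers of calcium sites. The pattern is found in 1.46% of 20512 mouse coding sequences. A canonical EF-hand loop (12 residues with aspartate at 1 and 5, aspartate or asparagine at 3, isoleucine, leucine, valine or phenylalanine at 8 and 10, and glutamate at 12) was found 1 time each in S100a1, S100a6, S100a11, S100a13 and S100a16. S100a10 had 0 matches, and the loop is found in 0.556% of the same coding sequences. S100a10 is known as the S100 protein that no longer responds to calcium.

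Library totals ran from 3481865 to 6975180 counts in ethanol sperm and from 4365887 to 4921827 in control sperm. Exons of mRNAs took 8.68%, 29.3%, 6.93% and 9.71% of counts in ethanol replicates 1 to 4, against 5.07%, 5.80%, 5.57% and 5.50% in control replicates 1 to 4. Ethanol replicate 2 stood apart, so values are also given without it. Levels are given as CPM, counts scaled to a common (TMM-adjusted) library size. Over all features tested, Pearson's r of log2 CPM between ethanol replicate 2 and each other ethanol library was 0.699 to 0.828, while pairs of control libraries had an r of 0.917 to 0.947. The sperm transcripts Smcp, Odf1 and Prm2 were present at 109 ± 33.9, 95.6 ± 38.7 and 65.0 ± 30.1 CPM in ethanol sperm and at 208 ± 18.5, 138.8 ± 20.4 and 87.5 ± 18.9 CPM in control sperm (SD, n = 4 each).

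Of the set, 6 genes, S100a10, S100a11, S100a16, Anxa1, Anxa2 and Anxa5, had a higher CPM in all 4 ethanol libraries than in any control library, and Anxa4 in 3 of 4. Of all tested mRNA exon features 28.7% had every ethanol library above every control library. The summed level of all 10 was 66.0, 251.6, 43.8 and 77.8 CPM in ethanol replicates 1 to 4, against 23.3, 21.7, 21.5 and 23.9 CPM in control replicates 1 to 4. The control libraries lay within a narrow band, on 84 to 89 summed counts each, where counting error alone could give a wider one. The ethanol libraries differed among themselves by more than the lowest of them differed from control. In bulk samples such as these, more cells of a type and more RNA per cell cannot be told apart.

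**Figure D1:**
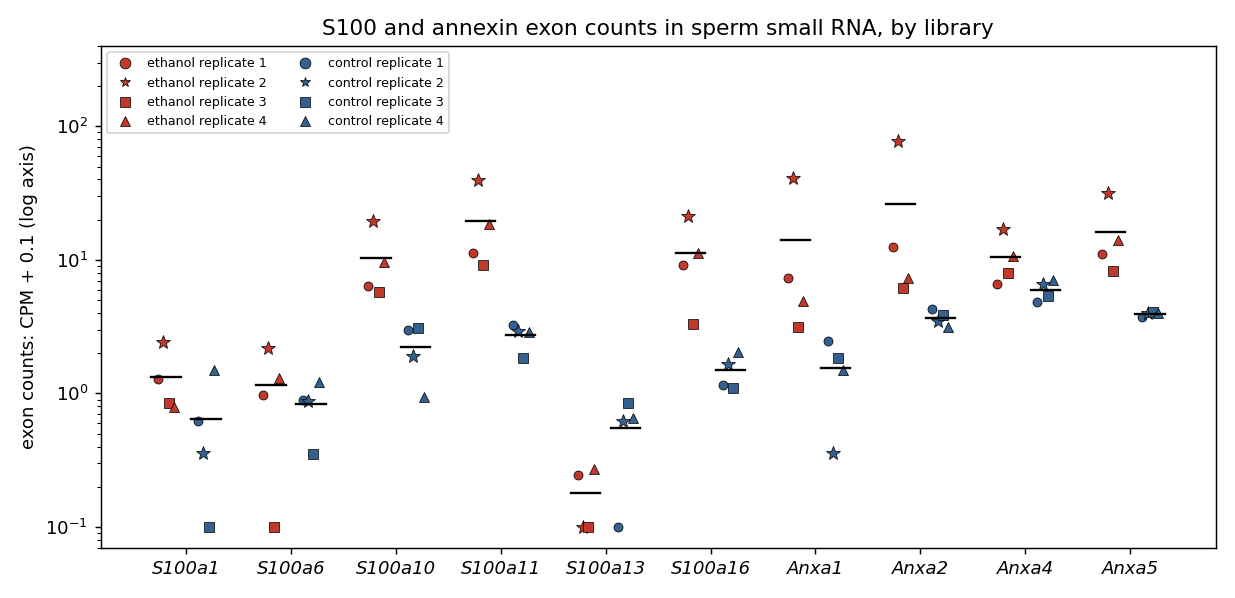
Exon counts of the 10 S100 and annexin genes in each library, as CPM with an offset of 0.1 on a log axis, ethanol left of control. Symbols mark replicate numbers and bars the group mean; the star of ethanol replicate 2 is the highest point for S100a1, S100a6, S100a10, S100a11, S100a16 and the 4 annexins, at 78.1 CPM for Anxa2.

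Of the 10, 7 genes passed the filter on low counts, and S100a1, S100a6 and S100a13 did not. The filter is applied before TMM adjustment and asks for about 2.28 CPM of the unadjusted library total in 4 libraries, a scale that differs from the adjusted CPM given elsewhere. On the unadjusted scale S100a16 and Anxa1 reached it in 0 control libraries and S100a10 and S100a11 in 2, so these 4 passed through the ethanol libraries, whereas Anxa2, Anxa4 and Anxa5 reached it in all 8. Of the 7, 6 were called higher in ethanol sperm and 0 lower (quasi-likelihood test in edgeR at a Benjamini-Hochberg threshold of 0.05), where 23.8% of 6532 mRNA exon features were called higher and 24% in either direction. Since the genes were chosen with this contrast known, nothing is read from that count. Their median log2 fold change was 2.84, against 0.89 over all mRNA exon features. With any 1 of the 4 control libraries left out, 0 of the 7 were called, 6 had an unadjusted p under 0.05, and at most 1 of all mRNA exon features was called higher. In those fits 2564 to 3147 mRNA exon features, of 7347 to 7547 tested, had an unadjusted p under 0.05.

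Among the S100 genes, S100a11 stood highest. S100a11, whose protein binds Anxa1 and is linked to growth control in human keratinocytes, had 11.2, 39.6, 9.05 and 18.5 CPM in ethanol replicates 1 to 4, against 3.14, 2.84, 1.75 and 2.78 CPM in control replicates 1 to 4. The lowest ethanol library lay well above the highest control library. The means were 19.6 ± 13.9 CPM in ethanol and 2.63 ± 0.608 CPM in control sperm (SD, n = 4 each), a log2 fold change of 2.88 ± 0.50 (SE). Without ethanol replicate 2 the ethanol mean was 12.9 ± 4.96 CPM and the log2 fold change 2.24 ± 0.35. These values rest on 419 counts in ethanol and 40 in control libraries.

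S100a10, the light chain partner of Anxa2, had 6.32, 19.6, 5.66 and 9.51 CPM in ethanol replicates 1 to 4, against 2.88, 1.81, 2.996 and 0.834 CPM in control replicates 1 to 4. Here too the groups did not overlap, with ethanol replicate 3 the closest to control. The means were 10.3 ± 6.43 CPM in ethanol and 2.13 ± 1.02 CPM in control sperm. The log2 fold change was 2.24 ± 0.50, and 1.67 ± 0.40 with ethanol replicate 2 left out.

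S100a16, a broadly expressed family member that binds calcium weakly, had 9.11, 21.04, 3.21 and 11.1 CPM in ethanol replicates 1 to 4, against 1.05, 1.55, 0.999 and 1.95 CPM in control replicates 1 to 4. Ethanol replicate 3 lay closest to control, and its 17 counts were above the 4 to 7 counts of the control libraries. The log2 fold change was 2.98 ± 0.54, and 2.43 ± 0.44 without ethanol replicate 2.

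The other 3 S100 genes were near the limit of detection. S100a1, a regulator of calcium handling best known from heart muscle, had 8, 11, 4 and 4 counts in ethanol replicates 1 to 4 and 2, 1, 0 and 5 in control replicates 1 to 4. The ratio of its pooled CPM, ethanol over control, was 2.28 (95% exact binomial interval 1.01 to 5.80, counting error only), but control replicate 4 lay above ethanol replicates 1, 3 and 4 in CPM. S100a6, also called calcyclin and linked to proliferating cells, had 6, 10, 0 and 7 counts in ethanol and 3, 3, 1 and 4 in control libraries, a pooled ratio of 1.41 (interval 0.661 to 3.21). S100a13, which takes part in the release of growth factors that lack a signal peptide, had 1, 0, 0 and 1 counts in ethanol and 0, 2, 3 and 2 in control libraries, a pooled ratio of 0.193 (interval 0.0196 to 1.01). These intervals leave out the spread between libraries and are a description, not a test. No difference was established at this depth for S100a1, S100a6 or S100a13. S100a1 and S100a13 are neighbours on opposite strands whose spans overlap by 98 bases in the RefSeq gene table and by 0 in GENCODE M21. Whether counting used strand is not given, so reads of such an overlap cannot be told apart.

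Among the annexins, Anxa2 had the highest single value and the widest spread. Anxa2, which binds phospholipid and actin and acts in exocytosis and in plasmin formation at the cell surface, had 12.5, 78.1, 6.04 and 7.26 CPM in ethanol replicates 1 to 4, against 4.19, 3.36, 3.75 and 3.06 CPM in control replicates 1 to 4. Ethanol replicate 2 stood far above the next highest ethanol library, and the other 3 still lay above every control library. The means were 26.0 ± 34.8 CPM in ethanol and 3.59 ± 0.489 CPM in control sperm. The log2 fold change was 2.84 ± 0.72, and 1.20 ± 0.34 without ethanol replicate 2.

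Anxa1, a mediator of glucocorticoid action that limits neutrophil entry into tissue, showed the same dependence on 1 library. It had 7.20, 40.6, 3.02 and 4.84 CPM in ethanol replicates 1 to 4, against 2.36, 0.259, 1.75 and 1.39 CPM in control replicates 1 to 4. Its log2 fold change was 3.24 ± 0.81, and 1.73 ± 0.47 without ethanol replicate 2. The fold of Anxa1 rests on 22 control counts in all, 1 of them in control replicate 2.

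Anxa5, which forms lattices on exposed phosphatidylserine and is used as a probe of dying cells, had the smallest control SD of the set. That SD rests on 14, 15, 16 and 14 counts in control replicates 1 to 4. At counts this low it may understate the error and does not show a tightly held level. It had 11.02, 31.6, 8.11 and 14.01 CPM in ethanol replicates 1 to 4, against 3.67, 3.88, 3.995 and 3.89 CPM in control replicates 1 to 4. The means were 16.2 ± 10.5 CPM in ethanol and 3.86 ± 0.138 CPM in control sperm. The log2 fold change was 2.06 ± 0.44, and 1.46 ± 0.32 with ethanol replicate 2 left out.

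Anxa4, an annexin of epithelia that binds membranes of secretory vesicles, set itself apart from the other tested genes. It had 6.46, 16.8, 7.92 and 10.6 CPM in ethanol replicates 1 to 4, against 4.71, 6.46, 5.24 and 6.95 CPM in control replicates 1 to 4. Ethanol replicate 1 lay below control replicate 4, so the groups overlapped. Its means were 10.4 ± 4.58 CPM in ethanol and 5.84 ± 1.04 CPM in control sperm, with a log2 fold change of 0.83 ± 0.37, and 47.4% of mRNA exon features had a smaller one. The same share was 91.3% for Anxa5, 94.4% for S100a10, 98.5% for Anxa2, 98.7% for S100a11, 98.8% for S100a16 and 99.2% for Anxa1. These percentages place each gene in the contrast that chose it and are not tests.

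Compared per kilobase of exon, S100a11 had the highest level of the set in both groups, at 38.3 ± 27.3 CPM per kb in ethanol and 5.14 ± 1.19 CPM per kb in control sperm. In ethanol sperm Anxa2 followed at 17.9 ± 24.1, S100a10 at 14.98 ± 9.38, S100a16 at 9.89 ± 6.61, Anxa5 at 9.34 ± 6.09, Anxa1 at 8.31 ± 10.7 and Anxa4 at 5.22 ± 2.29 CPM per kb. In control sperm the order behind S100a11 was S100a10 at 3.11 ± 1.48, Anxa4 at 2.92 ± 0.520, Anxa2 at 2.48 ± 0.338, Anxa5 at 2.23 ± 0.0799 and S100a16 at 1.23 ± 0.400 CPM per kb. Neighbours in either order differed by less than the larger of their SDs, except that S100a11 stood above S100a10 and Anxa5 above S100a16 in control sperm. Anxa4 stood behind S100a11 and S100a10 in control sperm and was the lowest of the tested 7 in ethanol sperm. S100a6, Anxa1, S100a1 and S100a13 had 0.9998, 0.859, 0.802 and 0.637 CPM per kb in control sperm, and S100a1, S100a6 and S100a13 had 1.82, 1.44 and 0.112 CPM per kb in ethanol sperm.

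Counts of the 7 tested genes did not all sit on 1 exon, though the last exon of S100a16 held most of its counts. Each of the 13 exons of Anxa1, Anxa2 and Anxa5 and each of the 3 exons of S100a10 and S100a11 had a higher mean CPM in ethanol than in control sperm. For Anxa4 this held for 10 of 13 exons. Many of these means rest on few counts, and all 4 ethanol libraries had counts on 7 exons of Anxa1, 7 of Anxa2 and 8 of Anxa5. Some rest on ethanol replicate 2: Anxa1 exon 9 had 2, 25, 0 and 0 counts in ethanol replicates 1 to 4 and 3, 0, 0 and 0 in control replicates 1 to 4. S100a16 had 0 counts on its first exon, 157 bases long, in all libraries, and counts on both other exons. The last exon, which holds the 3′ untranslated region, took 18.9% of Anxa2 counts in ethanol and 23.6% in control sperm, with 24.2% of the exon length. For S100a11 these shares were 49.6% in ethanol and 40.0% in control sperm, with 57.9% of the length. For Anxa4 they were 32.6% in ethanol and 21.3% in control sperm, with 49.1% of the length. The last exon of S100a16 and of S100a10 took more than its share of the length, at 79.8% in ethanol and 85.7% in control sperm with 70.1% of the length, and at 64.7% in ethanol and 60.6% in control sperm with 58.5%. Those of Anxa1 (14.7% in ethanol, 22.7% in control sperm, 20.5% of the length) and Anxa5 (21.8% in ethanol, 30.5% in control sperm, 28.0% of the length) lay below it in ethanol and above it in control sperm.

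**Figure D2:**
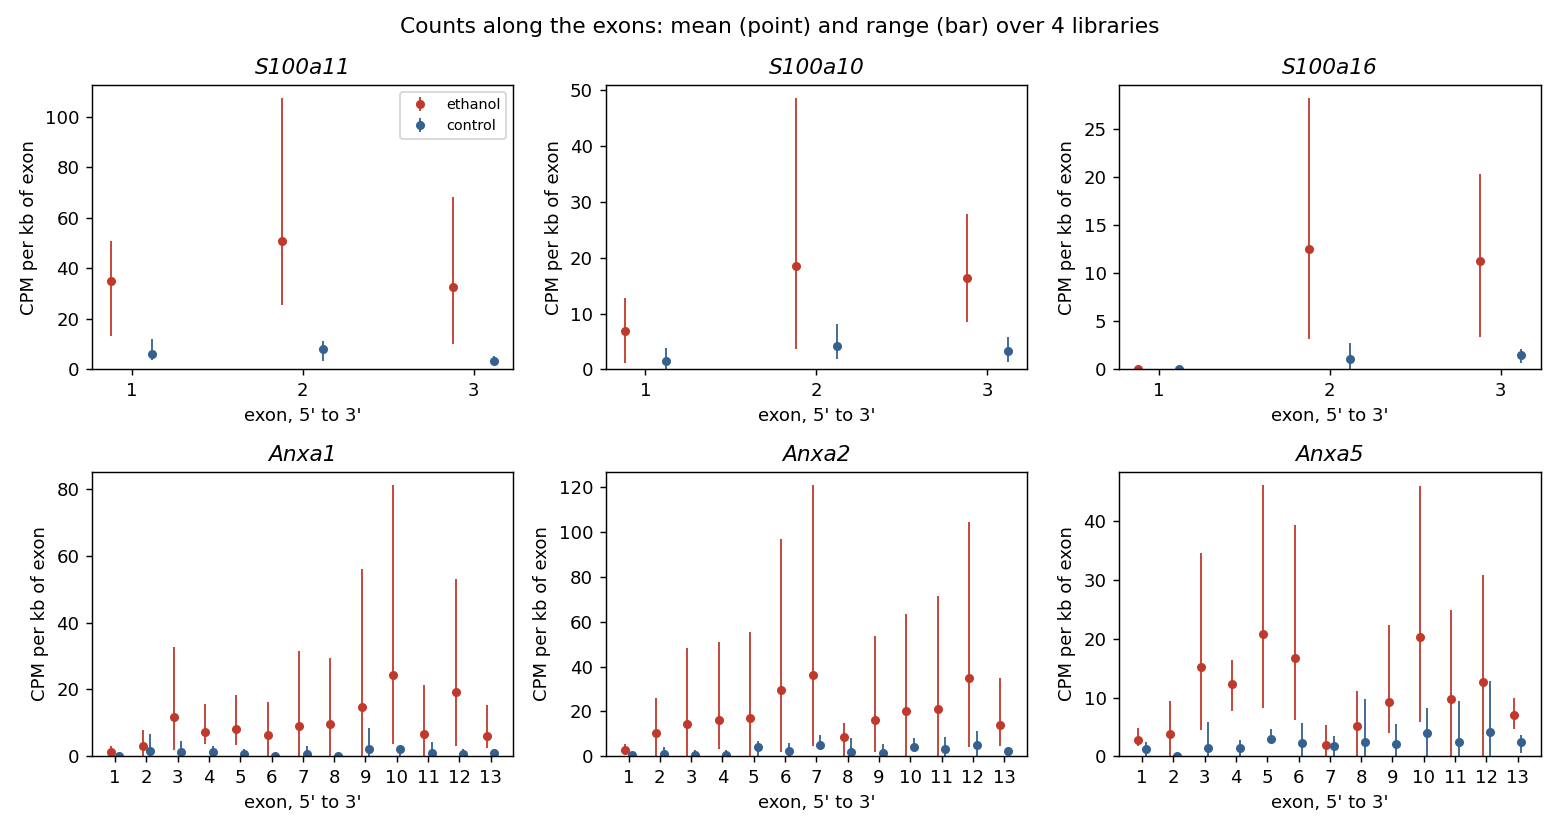
Exon counts per kilobase of exon (CPM per kb, linear axes that start at 0) along S100a11, S100a10, S100a16, Anxa1, Anxa2 and Anxa5, exons numbered 5′ to 3′, ethanol left of control. Points are means and bars the lowest to highest of 4 libraries; in S100a11 exon 2 the means are 50.9 in ethanol and 8.01 in control sperm.

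Introns of the same genes were counted separately in the same libraries. Intron counts of Anxa4 were lower in ethanol than in control sperm, at 5.68 ± 1.98 and 11.6 ± 2.19 CPM (132 and 177 counts). Exon counts of the same gene were not lower. Lower intron levels were not particular to Anxa4. Anxa11 introns had 17.6 ± 6.05 CPM in ethanol and 29.1 ± 5.78 CPM in control sperm. Mean intron levels of Anxa3, Anxa6 and Anxa7 were also lower in ethanol sperm, and that of Anxa13 was higher. The share of all genes with lower intron levels was not counted. Anxa5 introns had 2.34 ± 0.861 CPM in ethanol and 2.80 ± 0.734 CPM in control sperm, and those of Anxa2 had 3.98 ± 1.44 and 2.60 ± 0.655 CPM, both within the spread between libraries. S100a11 introns held 2 counts in ethanol and 4 in control libraries, against 419 and 40 exon counts, and S100a16 introns held 0 in both groups.

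Because mRNA exons took a larger share of ethanol libraries, the genes were also set against mRNA exon counts alone, a scale chosen after the data were seen. On this scale, CPM of the mRNA exon total, the 10 genes summed to 756, 1173, 480 and 779 in ethanol replicates 1 to 4, against 388, 332, 343 and 317 in control replicates 1 to 4. S100a10, S100a11, S100a16 and Anxa5 kept all 4 ethanol libraries above every control library, where 8.62% of mRNA exon features did so on that scale. S100a11 had 128, 184, 99.3 and 185 in ethanol and 52.2, 43.4, 27.9 and 36.9 in control libraries. Anxa1 and Anxa2 had 3 of 4 ethanol libraries above every control library, with ethanol replicate 3 inside the control range. Anxa4 was at 86.2 ± 13.9 in ethanol and 88.3 ± 9.02 in control sperm.

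**Figure D3:**
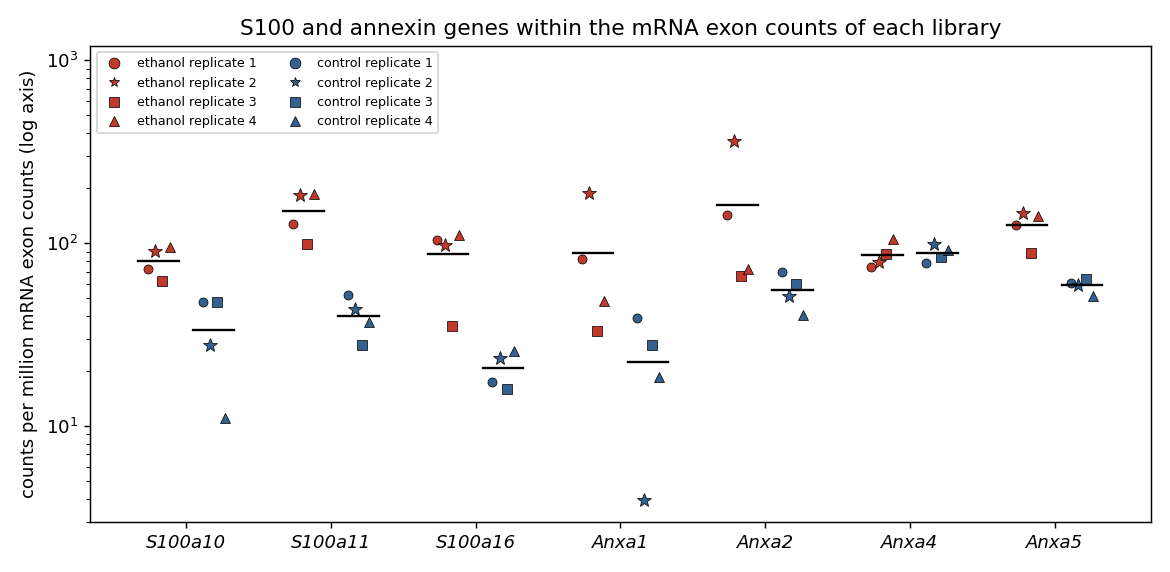
Level relative to the mRNA exon total (CPM of mRNA exons) of the 7 tested S100 and annexin genes in each library, on a log axis, ethanol left of control, with bars at the group means. Ethanol and control points are apart for S100a10, S100a11, S100a16 and Anxa5, and Anxa4 lies at 86.2 in ethanol and 88.3 in control sperm.

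A fit of mRNA exon features alone, whose own median log2 fold change was 0.02, gave log2 fold changes of 2.04 ± 0.41 for S100a16, 2.03 ± 0.66 for Anxa1, 1.87 ± 0.33 for S100a11, 1.60 ± 0.55 for Anxa2, 1.25 ± 0.40 for S100a10 and 1.08 ± 0.28 for Anxa5. Anxa4 was at -0.06 ± 0.25. In that fit 0 of the 7 genes and 0 of all mRNA exon features were called by edgeR, while 6 of the 7 and 1996 of all had an unadjusted p under 0.05. Scaled by library totals, the median of mRNA exon features was 1.25, S100a11 stood at 3.34 and Anxa4 at 1.22.

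**Figure D4:**
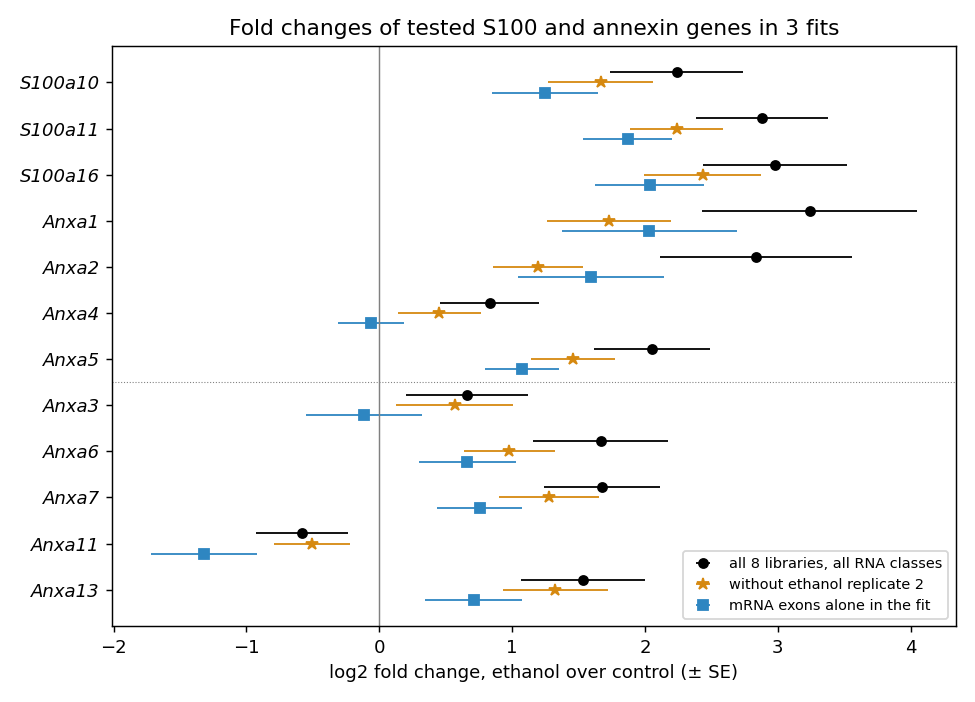
Log2 fold changes, ethanol over control, with SE, for the 7 tested genes of the set (above the dotted line) and 5 other annexins, in the fit of all libraries and RNA classes, without ethanol replicate 2, and with mRNA exons alone. S100a10, S100a11, S100a16, Anxa1, Anxa2 and Anxa5 lie above 1 in each fit, Anxa4 runs between 0.83 and -0.06, and Anxa11 is below 0 in all 3.

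The partner pairs did not keep a fixed ratio. Anxa2 counts per S100a10 count were 1.98, 3.99, 1.07 and 0.764 in ethanol replicates 1 to 4 and 1.45, 1.86, 1.25 and 3.67 in control replicates 1 to 4, with overlapping groups. Anxa1 counts per S100a11 count were 0.567 ± 0.349 in ethanol and 0.585 ± 0.388 in control sperm. S100a11 took 19.3% ± 3.67 of the counts of the 10 genes in ethanol and 11.6% ± 2.43 in control sperm, and the 2 groups did not overlap. Across the 8 libraries the log2(CPM + 1) values of gene pairs among the tested 7 correlated at 0.783 (Anxa4 with S100a10) to 0.983 (Anxa5 with S100a11). These libraries share depth and composition, and the coefficients only describe them.

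The profile of the 7 over the 8 libraries was most like those of Rpl14 and Hoxd9 (both r = 0.996), Cnih1 (0.995), Naca (0.994) and Atp13a1 (0.994), by Pearson's r with the mean of their standardized log2(CPM + 1). Rpl14, a ribosomal protein gene, had 13.8, 41.9, 9.24 and 14.7 CPM in ethanol replicates 1 to 4 and 3.93, 3.62, 3.75 and 4.17 CPM in control replicates 1 to 4. The profile is a common one: the median r over 6525 other mRNA exon features was 0.802, and 1832 of them had an r above 0.9.

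The rest of both families comprised 19 genes, of which 16 had counts and 5, all annexins, could be tested. Of these, 3 rose and 0 fell, against 23.8% of mRNA exon features that rose. Anxa6, a large annexin of endosomes and membrane repair, rose by 1.67 ± 0.51 on the log2 scale (edgeR adjusted p = 0.0441). Anxa7, linked to exocytosis of secretory granules, rose by 1.68 ± 0.44 (edgeR adjusted p = 0.0302). Anxa13, known from intestinal epithelium, rose by 1.53 ± 0.47 (edgeR adjusted p = 0.0433). Anxa7 had 6.17, 16.2, 4.72 and 11.9 CPM in ethanol and 2.88, 2.33, 2.996 and 3.89 CPM in control libraries, and was the only one of the 3 with every ethanol library above every control library. All 3 calls ended without any 1 of the control libraries (edgeR adjusted p 0.0619 to 0.167) and without ethanol replicate 4, and that of Anxa6 also without ethanol replicate 2, where its log2 fold change was 0.98. With mRNA exons alone the log2 fold changes of Anxa6, Anxa7 and Anxa13 were 0.66, 0.75 and 0.71 and none passed (edgeR adjusted p 0.241, 0.144 and 0.214). With limma-voom none of the 3 passed, and with DESeq2 size factors Anxa7 alone did.

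Anxa11, which tethers RNA granules to lysosomes, was lower in ethanol sperm without passing the test. It had 16.9, 14.5, 24.5 and 26.3 CPM in ethanol and 34.6, 29.7, 30.5 and 28.4 CPM in control libraries. Every ethanol library lay below every control library, and the log2 fold change was -0.58 ± 0.34 (edgeR adjusted p = 0.243), or -1.32 with mRNA exons alone in the fit. How many mRNA exon features had such a downward separation was not counted, so nothing is read from it. Anxa3 had 4.25 ± 1.22 CPM in ethanol and 2.67 ± 1.71 CPM in control sperm, a log2 difference of 0.66 ± 0.46 (edgeR adjusted p = 0.319).

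Of the 11 remaining genes with counts, S100a8, S100a14 and Anxa9 had more than a few. S100a8, a subunit of the neutrophil protein calprotectin, had 56, 51, 2 and 5 counts in ethanol and 0, 5, 2 and 1 in control libraries. Its partner subunit S100a9 had 1, 0, 1 and 0 counts in ethanol and 3, 0, 0 and 1 in control libraries, and so did not share the high counts of ethanol replicates 1 and 2. S100a14, known from epithelia, had 21, 59, 5 and 1 counts in ethanol and 1, 0, 0 and 0 in control libraries. Anxa9, an annexin with altered calcium sites, had 25, 122, 7 and 4 counts in ethanol and 2, 6, 6 and 2 in control libraries. For these 3 the counts were highest in ethanol replicates 1 and 2, whose column names share a prefix that those of ethanol replicates 3 and 4 lack. S100a4, linked to cell motility, had 0 counts in ethanol libraries and 2, 1, 3 and 0 in control libraries. S100b, S100a3, S100a7a, S100z, Anxa8 and Anxa10 had at most 4 counts in any library, and S100a5, S100a7l2 and S100g had none.

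Binding partners, receptors and calcium or membrane repair genes formed a list of 32, of which 31 had counts and 19 were tested. Of the 19, 9 rose, 0 fell and 10 did not pass, and 23.8% of mRNA exon features rose. An unadjusted p under 0.05 was found for 17 of the 19 and for 3263 of 6532 mRNA exon features. The median log2 fold change of the 19 was 1.27, against 0.89 over all mRNA exon features, and with mRNA exons alone in the fit it was 0.39. That fit tested 20 partner genes, of which 0 passed. An unadjusted p under 0.05 was found there for 5 of the 20 and for 1996 of 6952 mRNA exon features. Trpv6, an epithelial calcium channel that the Anxa2 and S100a10 complex brings to the membrane, had 25.2 ± 26.4 CPM in ethanol and 3.69 ± 1.495 CPM in control sperm, and rose by 2.76 ± 0.62 on the log2 scale (edgeR adjusted p = 0.0286). The membrane repair and sorting genes Chmp4b and Tsg101 rose by 2.06 ± 0.51 and 1.95 ± 0.48. Capn1, a calcium-activated protease whose family cleaves repair proteins, rose by 1.71 ± 0.42 and its regulatory subunit Capns1 by 1.53 ± 0.48 (edgeR adjusted p = 0.0472). Sugt1, whose product binds S100a6, rose by 1.36 ± 0.36 (edgeR adjusted p = 0.0303). Ahnak, a giant scaffold bound by the Anxa2 and S100a10 complex, had 89.4 ± 77.9 CPM in ethanol and 47.7 ± 12.96 CPM in control sperm, a log2 difference of 0.90 ± 0.52 (edgeR adjusted p = 0.232). Myof, a ferlin of membrane repair, differed by 1.07 ± 0.47 (edgeR adjusted p = 0.126). The receptor genes Ager, Tlr4, Fpr1 and Fpr2 were too low to test. Each of the 9 calls ended without any 1 of the control libraries. Without ethanol replicate 4 only Chmp4b, Capn1, Trpv6 and Tsg101 of the 9 still passed. The call of Capns1 and others of the 9 also ended without ethanol replicate 2. Without ethanol replicate 2 the log2 fold changes of Trpv6, Myof and Ahnak were 1.67, 0.48 and 0.04.

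S100a10, S100a11, S100a16 and the annexins are also abundant in epithelia, and the summed level of epididymal epithelial markers was also higher in ethanol libraries. Markers of the epididymal epithelium summed to 1025 to 14013 CPM in ethanol libraries and to 460 to 909 CPM in control libraries. Of 10 tested, 8 rose and 0 fell, where 23.8% of mRNA exon features rose. Relative to the mRNA exon total the markers summed to 11242 to 65323 CPM in ethanol and to 7650 to 14523 CPM in control libraries, and the groups overlapped. Crisp1, a secreted epididymal protein that binds sperm, had 3478 ± 4158 CPM in ethanol and 487.8 ± 121 CPM in control sperm, and rose by 2.83 ± 0.71 on the log2 scale (edgeR adjusted p = 0.0291). On average Crisp1 made up most of the epithelial sums, and a sum without it was not formed. Adam7 rose by 5.09 ± 1.44 on the log2 scale (edgeR adjusted p = 0.0432), while Clu, at 2.67 ± 1.02, did not pass (edgeR adjusted p = 0.0927). Without ethanol replicate 2 the 3 log2 fold changes were 1.48, 1.71 and 0.82, and the highest epithelial sum in ethanol sperm was 3074 CPM. The calls of Crisp1 and Adam7 ended without any 1 of the control libraries, and that of Adam7 also without ethanol replicate 2 or 3. Both the epithelial markers and the 10 genes were highest in ethanol replicate 2 and, among ethanol libraries, lowest in ethanol replicate 3. The same was true of the share of mRNA exon counts. Ethanol replicates 1 and 4 stood in opposite order, at 3074 and 1539 CPM for the epithelial markers and 66.0 and 77.8 CPM for the 10 genes. The part of epididymal epithelial cells in the levels of S100 and annexin genes was not tested.

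White blood cell markers summed to 187 to 2718 CPM in ethanol and 74.9 to 106.8 CPM in control libraries, with Cd52, which epididymal epithelium also expresses, at 882 ± 1205 and 69.3 ± 17.1 CPM. Without Cd52, a list formed after the data were seen, they summed to 11.3 to 33.9 CPM in ethanol and 15.4 to 28.4 CPM in control libraries, with Ptprc at 0.735 ± 0.275 and 1.07 ± 0.693 CPM. Spermatid and sperm markers summed to 248 to 707 CPM in ethanol and 654 to 819 CPM in control libraries, and 0 of 14 passed the edgeR test (2 at an unadjusted p under 0.05), with a median log2 fold change of -0.55. Relative to the mRNA exon total they summed to 1158 to 7747 CPM in ethanol and 9988 to 12893 CPM in control libraries, and the groups did not overlap. Stromal, muscle and vessel markers summed to 27.8 to 86.3 CPM in ethanol and 60.6 to 150.2 CPM in control libraries, and 0 of 7 passed the edgeR test (1 at an unadjusted p under 0.05). Red blood cell markers summed to 2.07 to 19.7 CPM in ethanol and 18.6 to 37.5 CPM in control libraries, with Hba-a1 and Hba-a2 lower in ethanol sperm, 2 of 4 tested, calls that ended without any 1 of the control libraries.

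**Figure D5:**
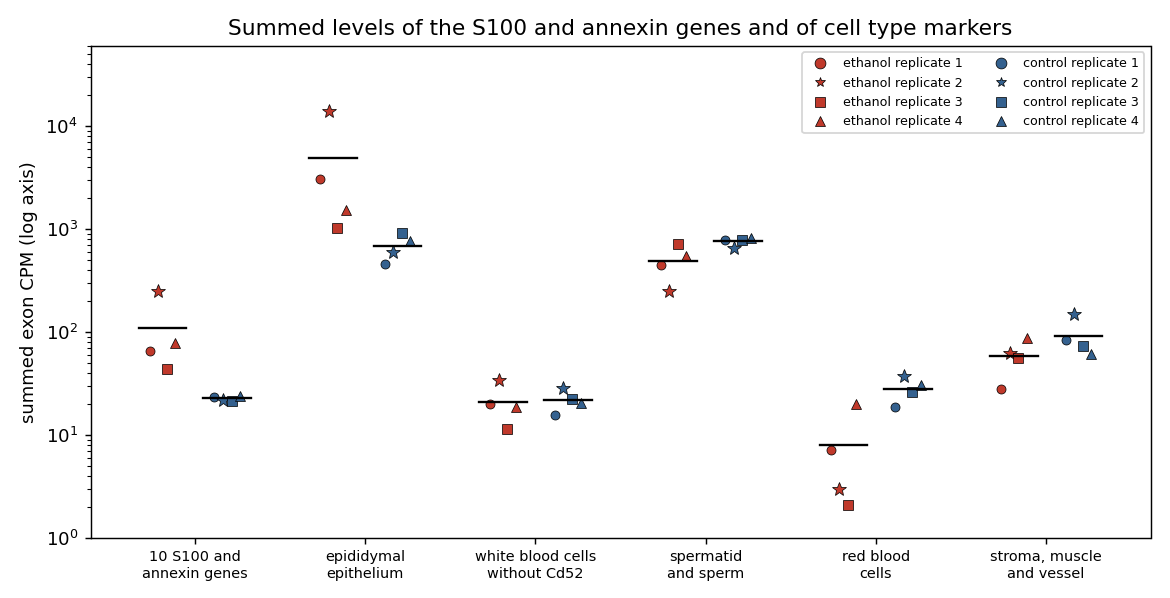
Summed exon CPM per library (log axis) of the 10 S100 and annexin genes and of marker lists of 5 cell types, ethanol left of control, with bars at the group means. The epididymal list spans 1025 to 14013 CPM in ethanol and 460 to 909 CPM in control libraries, and the white blood cell list without Cd52 overlaps between groups.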

How the data were processed

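Small RNA was sequenced from 4 ethanol and 4 control mouse sperm samples, with RNA from Trizol and libraries from Qiaseq reagents, per the labels' protocols. The file that the authors deposited holds raw counts, whole numbers for each annotated feature in each library, and no normalization is recorded. Aligner, counting rule, use of strand and genome build are not given in the sources used here, nor whether counts are reads or molecules. Groups and replicate numbers came from the sample titles. The column names start with POCM for control, POM for ethanol replicates 1 and 2, and POEM for ethanol replicates 3 and 4. What these prefixes mean is not stated in the labels.

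Rows were summed by name and RNA class, exon rows by gene symbol, which gave 45405 features. Of these 13513 passed filterByExpr by group (minimum count 10) and were fitted together in edgeR 4.0.16, under R 4.3.3 (scaled by TMM, with a robust quasi-likelihood test and group alone in the model, adjusted by Benjamini-Hochberg over all features tested, threshold 0.05). CPM used TMM-scaled library sizes. Standard errors (SE) of log2 fold changes were derived from the F statistics. Intervals of pooled ratios are exact binomial at 95% and cover counting error only, as reads of PCR-amplified libraries are not independent molecules. Exon rows ran in genomic order, checked against exon lengths, and were turned 5′ to 3′ for genes on the reverse strand.

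The members and all gene and marker lists were chosen with earlier results of these data known. Named genes were all members, the other S100 and annexin genes with counts, partner genes past the threshold (up to 6 by smallest p) and the 4 with the highest mean CPM, the 3 highest of each marker list, and the 5 most similar profiles. A partner gene that this rule names is not reported here. Ptprc and the receptor genes were named after their values were seen. Sequences are from GENCODE M21 transcripts of GRCm38, and the motifs, the exons printed and the pseudocount of 1 behind the profile correlations were chosen after values were seen. On simulated data, on which the fit was tested, how many changed features it recovered depended strongly on the dispersion assumed, with none recovered at the first and larger dispersion tried. Other settings tried were library totals, DESeq2 1.42.0 size factors and its Wald test, limma-voom (limma 3.58.1), 2 other count filters, mRNA exons alone, the replicate number as a block, and each library left out. Python 3.11.15 was used for tables and figures, with numpy 2.4.6 and pandas 2.3.3.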

Additional observations from a re-analysis of the deposited data

Results flagged for a closer look

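In 3 of the 36 groups of 4 libraries examined, 1 library lay farther from the rest than Dixon's 95% critical value allows, where chance gives about 5%. All 3 were ethanol replicate 2, which also had the highest share of mRNA exon counts. Anxa1 had 40.6 CPM there, against 7.20 CPM in the next highest ethanol library, a gap of 0.889 of the group's range. Anxa2 had 78.1 CPM, against 12.5 CPM in the next, a gap of 0.910 of the range. Anxa9 had 25.7 CPM, against 3.67 CPM in the next, a gap of 0.881 of the range.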

How the results depend on the processing

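Across all features 1837 passed the edgeR test as reported. The count was 1201 with DESeq2 size factors, 3140 with the DESeq2 Wald test, 8 with limma-voom, 3432 with no count filter and 0 with mRNA exons alone in the fit (1996 at an unadjusted p under 0.05). Leaving out 1 library gave 3 to 3568. Of the other S100 and annexin genes 3 passed as reported, 1 with DESeq2 size factors, 6 with no filter, 0 with limma-voom (3 at an unadjusted p under 0.05) and 0 with mRNA exons alone (2 unadjusted), and leaving out 1 library gave 0 to 3. Of the partner genes 9 passed as reported, 5 with DESeq2 size factors, 5 with at least 30 counts in all, 0 with limma-voom (14 unadjusted) and 0 with mRNA exons alone (5 unadjusted), and leaving out 1 library gave 0 to 13. The lowest of these counts came from leaving out a control library, and for the other S100 and annexin genes also from leaving out ethanol replicate 4. Of the 7 tested members the median log2 fold change was 2.84 as reported, 1.60 with mRNA exons alone and 1.67 to 3.07 with 1 library left out. Of them, 6 were called as reported, 5 with the DESeq2 Wald test, which gave Anxa2 no p, and 0 with limma-voom (6 unadjusted). With mRNA exons alone the log2 fold changes of Anxa3 and Ahnak were -0.12 and -0.17. Among markers not called in the fit reported, Acta2 turned to 0.020 with library totals and ran from -0.62 to 0.29 with 1 library left out, and Cd74 to 0.12 with library totals. Dcn turned to 0.0076 with DESeq2 size factors, 0.42 with library totals, 0.010 with the Wald test and 0.0050 with no filter, and ran from -0.77 to 0.24 with 1 library left out. The cause of these changes was not tested. Deviations from the group mean correlated between same-numbered ethanol and control libraries at r of 0.357, 0.215, -0.137 and -0.024 for numbers 1 to 4. Pairs with different numbers ran from -0.407 to 0.390. Whether same-numbered libraries share more than a number cannot be told from these values. With the replicate number as a block, 3291 features, 3 other S100 and annexin genes and 14 partner genes passed. Control counts of 40 or fewer for S100a11, S100a10, S100a16 and Anxa1 limit the precision of their folds.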
